A study of Mus musculus with 8 samples.

Results

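Cytokine ligands made in the islet were examined by cell type, as 9 genes chosen by symbol out of 30406 genes listed with the same identifier in every library. *Il1a*, *Il1b* and *Il1rn* encode the agonists IL-1α and IL-1β and the IL-1 receptor antagonist. *Il6*, *Tnf* and *Csf1* encode interleukin-6, tumour necrosis factor and the macrophage growth factor CSF-1, *Il15* and *Il18* encode interleukins that act on lymphocytes, and *Tnfsf10* encodes the death-receptor ligand TRAIL. IL-1α and IL-1β bind the same receptor, which signals through NF-κB, and the receptor antagonist occupies that receptor without signalling. IL-1β and IL-18 are made as precursors that inflammatory caspases cleave, so their transcripts do not by themselves measure secreted ligand. In the islet, resident macrophages are the textbook source of IL-1β and TNF, and exposure of β-cells to IL-1 together with interferon-γ (IFN-γ) induces the inducible nitric oxide synthase and the production of nitric oxide.

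The islets came from male C57BL6/J mice of 12 to 16 weeks. Islets of 10 mice were pooled for each of 2 replicates, called pool 1 and pool 2 here, and each pool was divided over 4 conditions for 18 h. One portion stayed untreated and another was exposed to both cytokines (IL-1β at 10 U/mL, IFN-γ at 150 U/mL). The remaining portions received NMMA at 2 mM, an inhibitor of nitric oxide synthase, either together with both cytokines or by itself, so that there were 8 single-cell libraries, n = 2 pools per condition and no unpooled animal. Because IL-1β itself was added to the medium, a transcript of *Il1b* is message made by the islet cells, not the cytokine given. Cells were captured in droplets, and a UMI (unique molecular identifier) stands for 1 captured RNA molecule. The libraries held 26549922 to 50731370 UMIs, and 937 to 2149 barcodes per library passed the filters (10876 of 17426 barcodes in all), with a median of 3983 to 24136 UMIs.

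Cells were grouped without the 9 ligand genes and named from marker genes. The 6339 β-cells (447 to 1661 per library) had a median of 20422 to 29794 UMIs, the 642 α-cells (47 to 105) 12099 to 18997, the 324 δ-cells (10 to 94) 10270 to 16548, the 324 macrophages (28 to 72) 8026 to 15154, the 283 endothelial cells (15 to 52) 8829 to 16298, and the 217 mesenchymal cells (13 to 50) 3416 to 10880. Every marker of the macrophage, endothelial and δ-cell lists was detected in that class in every library. The cytokine libraries held only 11 and 10 δ-cells and 15 and 23 endothelial cells. Different clusters held most of a class with and without cytokines (for macrophages, cluster 13 held 108 of 110 untreated cells and cluster 18 held 45 of 69 cytokine-treated cells, and for endothelial cells cluster 15 held 97 of 97 and cluster 19 held 37 of 38), so that values within a class compare these clusters. The same held for β-cells (clusters 0 and 2 against 1 and 8, and 9 and 12 with NMMA added), α-cells and δ-cells, while all mesenchymal cells lay in cluster 14. Levels below are CPM, the UMIs of a gene scaled to 1000000 UMIs of its class in a library, and log2 changes come from edgeR's quasi-likelihood test on the UMIs summed per class and library, with TMM scaling and p-values adjusted by Benjamini-Hochberg over all genes tested in the class (threshold 0.05).

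By position (GRCm38), *Il1a* (chr2:129299610-129309972, minus strand) and *Il1b* (chr2:129364570-129371139, minus strand) lie close to each other, and *Il1rn* (chr2:24336853-24351494, plus strand) lies elsewhere on chromosome 2. *Il6* spans chr5:30013114-30019981 (plus strand), *Tnf* chr17:35199381-35202007 (minus), *Csf1* chr3:107741048-107760469 (minus), *Tnfsf10* chr3:27317028-27342427 (plus), *Il15* chr8:82331632-82403222 (minus) and *Il18* chr9:50554827-50581840 (plus). Each of the 9 is a protein-coding gene with 4 to 9 exons in its longest model. Annotated genes overlap *Il1b* (*Il1bos*, 15 UMIs in all kept barcodes), *Il1a* and *Il18* (*Bco2*, 88 UMIs) on the other strand.

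The promoters of *Il6*, *Csf1*, *Tnf* and *Il1b* are shown because these genes rose with cytokines in different cell types, and because the first 3 hold a κB-type motif while that of *Il1b* holds none. Each run is 250 bases before to 50 after the annotated start (RefSeq, GRCm38.p6), written 5′ to 3′ on the gene's strand, and capitals mark the motif GGGNNNNNCC on either strand.
Il6: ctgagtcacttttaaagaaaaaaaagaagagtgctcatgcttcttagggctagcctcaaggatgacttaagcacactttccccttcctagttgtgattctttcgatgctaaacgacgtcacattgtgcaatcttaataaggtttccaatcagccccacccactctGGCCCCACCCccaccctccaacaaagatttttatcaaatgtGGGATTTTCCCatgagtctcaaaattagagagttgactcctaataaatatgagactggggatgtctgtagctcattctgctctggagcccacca
Csf1: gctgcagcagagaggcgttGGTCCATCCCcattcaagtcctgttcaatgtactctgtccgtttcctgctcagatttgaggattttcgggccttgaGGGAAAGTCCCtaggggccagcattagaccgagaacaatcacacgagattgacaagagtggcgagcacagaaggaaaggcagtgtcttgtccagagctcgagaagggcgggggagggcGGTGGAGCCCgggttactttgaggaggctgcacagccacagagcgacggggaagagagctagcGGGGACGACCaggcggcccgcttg
Tnf: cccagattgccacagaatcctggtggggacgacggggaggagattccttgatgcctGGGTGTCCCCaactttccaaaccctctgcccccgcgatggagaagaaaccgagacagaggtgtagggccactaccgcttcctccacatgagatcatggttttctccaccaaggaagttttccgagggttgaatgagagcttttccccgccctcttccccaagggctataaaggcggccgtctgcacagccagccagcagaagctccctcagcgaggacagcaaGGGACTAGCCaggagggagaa
Il1b: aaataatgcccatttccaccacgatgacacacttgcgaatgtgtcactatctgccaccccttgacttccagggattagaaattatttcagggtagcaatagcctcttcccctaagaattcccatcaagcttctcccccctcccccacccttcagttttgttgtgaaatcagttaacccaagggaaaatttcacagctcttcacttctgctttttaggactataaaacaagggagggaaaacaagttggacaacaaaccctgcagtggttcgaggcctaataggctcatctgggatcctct
The windows are chr5:30012864-30013163 (plus strand), chr3:107760420-107760719 (minus), chr17:35201958-35202257 (minus) and chr2:129371090-129371389 (minus). With the annotated start counted as base 1, the matches begin at -85, -44 and -43 in *Il6* (the last 2 overlap), at -231, -155, -154, -37 and 27 in *Csf1* (-155 and -154 overlap), and at -194 and 30 in *Tnf*. This motif is short, and 50.8% of 32851 promoter windows of the same length held it. The 3 windows of *Il1rn* also held it, and those of *Il1a*, *Tnfsf10* and *Il18* did not. The interferon-type letters GAAANNGAAA (either strand, 3.44% of all windows) were in none of the 10 windows found for 8 of the 9 ligands. A match describes letters in a window and is not a binding site, and *Il15* was not in the table used.

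*Il1b* transcripts were found mainly in β-cells. β-cells held 404 of the 456 *Il1b* UMIs of the untreated libraries (88.6%, with 94.6% in pool 1 and 80.6% in pool 2), while macrophages held 7.46%. With cytokines, β-cells held 2410 of 2585 *Il1b* UMIs (93.2%) and macrophages 3.33%. Over all 8 libraries the share in β-cells was 90.6%. β-cells also held most of the UMIs of any gene, with 85.2% and 69.2% of all UMIs in the untreated libraries and 93.0% and 84.6% in the cytokine libraries, where their *Il1b* shares were 97.3% and 84.5%. In CPM, *Il1b* in β-cells was 6.997 and 10.2 untreated, 58.4 and 42.0 with cytokines, 94.2 and 63.7 with cytokines and NMMA, and 13.3 and 16.03 with NMMA alone. The cytokine-treated pools lay above every pool without cytokines, and the change was 2.79 ± 0.264 on the log2 scale (SE, adjusted p = 0.000106 in edgeR's quasi-likelihood test).

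Per cell, *Il1b* UMIs were found in 11.9% and 18.2% of untreated β-cells and in 52.0% and 44.4% with cytokines, where a β-cell with the transcript held a median of 2 UMIs and at most 28. The cell holding the most UMIs carried 1.64% and 2.14% of them in the cytokine-treated pools, so *Il1b* was spread over many β-cells. In α-cells of the same libraries, with median depths of 12099 to 18997 UMIs, 0 of 93 and 0 of 94 untreated cells held a UMI. A count of 0 allows up to 3.23% and 3.19%, and with cytokines 6.38% and 8.82% of α-cells held a UMI. Endothelial cells held 1 *Il1b* UMI in all 8 libraries. With every cell thinned to 1000 UMIs, *Il1b* was found in 0.724% and 1.01% of untreated β-cells and in 5.31% and 4.56% with cytokines, in 0% of untreated α-cells, and with cytokines in 2.17% and 0% of α-cells. Thinning left out at most 9 β-cells of a library and at most 11 macrophages.

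In macrophages *Il1b* was 14.0 and 40.4 CPM untreated, 88.5 and 118 with cytokines, 479 and 102 with cytokines and NMMA, and 20.5 and 46.2 with NMMA. The groups with and without cytokines did not overlap, but the change of 1.87 ± 1.05 did not pass (adjusted p = 0.513 in edgeR's quasi-likelihood test). It passed without cytokines and NMMA replicate 1 (1.87 ± 0.450, adjusted p = 0.0338) or replicate 2 (1.90 ± 0.458, adjusted p = 0.0438), libraries that enter only the shared estimate of the spread. A few macrophages carried the transcript: 4 of 33 and 5 of 36 cytokine-treated macrophages held it, and the cell with the most UMIs carried 63.4% and 62.2% of them. Without that cell the level was 32.4 and 44.5 CPM with cytokines and 5.62 and 11.1 untreated. Per UMI of the class, macrophages were above β-cells in untreated islets by 1.28 ± 0.491 on the log2 scale (adjusted p = 0.0338 in edgeR's quasi-likelihood test over 6 classes). This difference was lost without untreated replicate 2 (0.59, adjusted p = 0.729) and with the replicate number in place of the library as a block (1.46, adjusted p = 0.103). With cytokines the difference was 0.67 (adjusted p = 0.111), and it passed with total UMI scaling (1.03, adjusted p = 0.0124). In neither condition was the level per UMI called higher in β-cells, which held 62.7% to 93.0% of all UMIs of a library.

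Macrophage transcripts were also found among the β-cells and were higher with cytokines. The 10 macrophage markers summed to 72.5 and 48.4 CPM in untreated and 124.8 and 69.8 CPM in cytokine-treated β-cells, where *Adgre1* was at 0 in 7 of the 8 libraries. Of these, the genes *C1qa*, *C1qb*, *C1qc*, *Lyz2*, *Tyrobp* and *Fcer1g* together were at 61.7 CPM in untreated and 86.5 CPM in cytokine-treated β-cells, and at 19290 and 20820 CPM in macrophages. In β-cells they were at 129.3 CPM with cytokines and NMMA and at 36.58 CPM with NMMA alone. Per 100 UMIs of these genes, *Il1b* had 12.9 UMIs in untreated β-cells (95% exact interval 11.6 to 14.3) and 0.164 in untreated macrophages (0.114 to 0.229). With cytokines the values were 60.7 (57.7 to 63.9) in β-cells and 0.489 (0.391 to 0.604) in macrophages. In cytokine-treated α-cells the value was 30.2 (14.9 to 57.3). The intervals cover counting error only, and the macrophage values rest on the few cells described above. The part of macrophage RNA in the *Il1b* UMIs of β-cells was not tested.

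**Figure D1:**
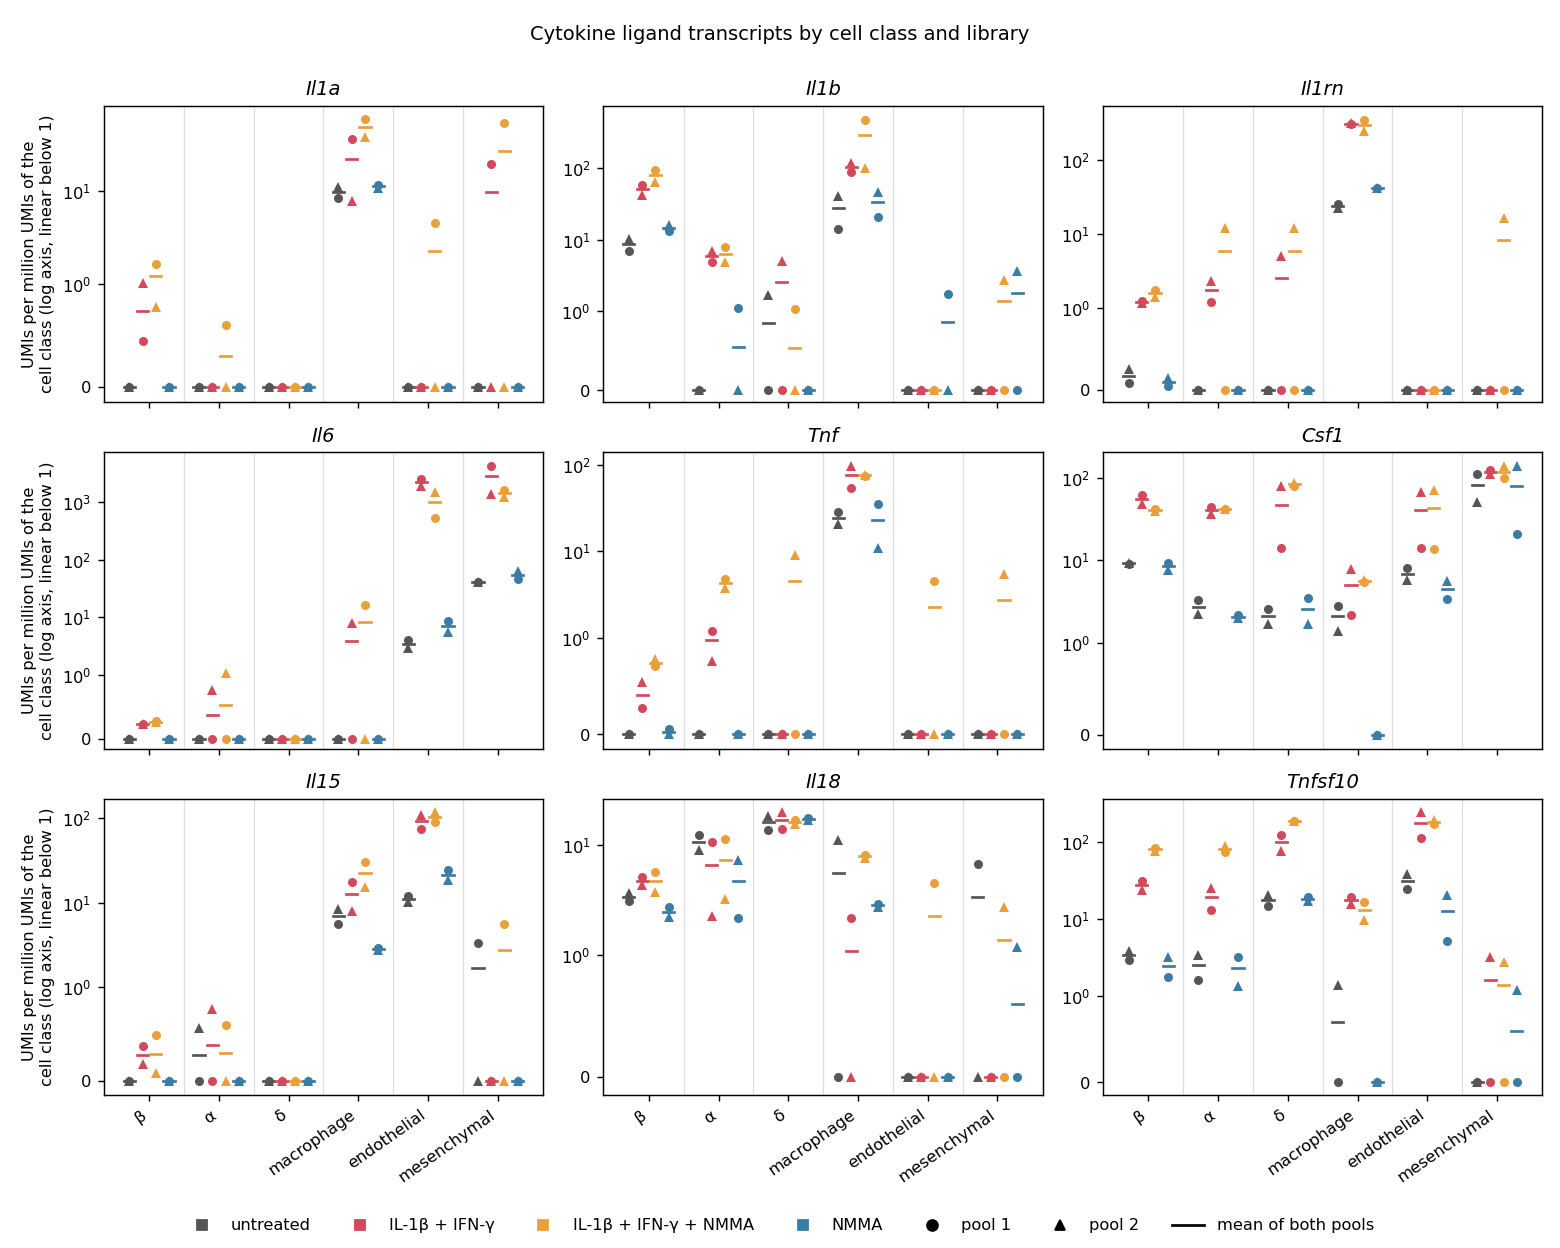
Levels of the 9 ligands (CPM) in each cell class and condition, on a log axis that is linear below 1, with circles for pool 1, triangles for pool 2 and a bar for their mean. *Il1b* in β-cells went from 6.997 and 10.2 untreated to 58.4 and 42.0 with IL-1β + IFN-γ, and *Il6* in endothelial cells from 4.01 and 2.92 to 2504 and 1910.4.

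Among the 6 classes, *Il1rn* had its highest level in macrophages. They held 47.2% of the *Il1rn* UMIs untreated and 71.3% with cytokines (25 of 53 and 258 of 362), and barcodes outside the 6 classes held 39.6% and 12.2%. Over all conditions, 66 UMIs outside the classes lay in a ductal-like cluster of 39 cells, at 104 CPM. *Il1rn*, the antagonist of the IL-1 receptor, was 25.3 and 22.3 CPM in untreated macrophages, 300.1 and 311 with cytokines, 349 and 241 with cytokines and NMMA and 40.9 and 40.7 with NMMA. Both cytokine conditions lay far above both others, and the change with cytokines was 3.78 ± 0.304 (adjusted p = 1.89e-06 in edgeR's quasi-likelihood test). It was found in 15.8% and 13.9% of untreated and in 60.6% and 52.8% of cytokine-treated macrophages. In β-cells *Il1rn* was 0.0853 and 0.258 CPM untreated and 1.23 and 1.14 with cytokines. This rise passed the test as well (3.19 ± 0.556, adjusted p = 0.00178 in edgeR's quasi-likelihood test), at 1.39 UMIs per 100 UMIs of the 6 macrophage genes (interval 1.04 to 1.81), which overlaps the ratio of macrophages, 1.47 (1.29 to 1.66). In cytokines pool 1, 1 β-cell held 10 of the 36 *Il1rn* UMIs, and over all conditions a macrophage gene was found in 56.9% of the 72 β-cells with *Il1rn* and in 53.9% of those without it. The part of macrophage RNA in these UMIs was not tested. Macrophages exceeded β-cells in *Il1rn* by 6.56 ± 1.35 untreated and 7.60 ± 0.660 with cytokines (adjusted p = 0.00196 and 3.23e-06 in edgeR's quasi-likelihood test), and endothelial cells held 0 *Il1rn* UMIs in every library.

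Macrophages held all 11 *Il1a* UMIs of the untreated islets, and with cytokines they held 20 of 53 (37.7%) while β-cells held 30 (56.6%). The difference between macrophages and mesenchymal cells did not pass (adjusted p = 0.0991 untreated and 0.332 with cytokines in edgeR's quasi-likelihood test). *Il1a* was 8.43 and 11.1 CPM in untreated macrophages, 36.7 and 7.85 with cytokines, 59.9 and 38.3 with cytokines and NMMA and 11.7 and 10.9 with NMMA. The cytokine-treated pools fell on both sides of the untreated ones, and the change of 1.25 ± 0.655 did not pass (adjusted p = 0.407 in edgeR's quasi-likelihood test). It turned to -0.21 without cytokines replicate 1. Cytokines with NMMA against untreated gave 2.30 ± 0.595 (adjusted p = 0.0292 in edgeR's quasi-likelihood test), lost with DESeq2 (adjusted p = 0.156), without untreated replicate 1 (0.115), without untreated replicate 2 (0.119) and without cytokines and NMMA replicate 1 (0.220). In β-cells *Il1a* had 0 UMIs in both untreated pools and 13 and 17 with cytokines (0.444 and 1.02 CPM), at least 11.04-fold higher with the untreated group set at 3 UMIs (adjusted p = 0.00465 in edgeR's quasi-likelihood test). Per 100 macrophage-gene UMIs it had 0.756 UMIs there (0.509 to 1.08) and 0.114 in cytokine-treated macrophages (0.0694 to 0.176). Of the 13 *Il1a* UMIs of mesenchymal cells, 3 came from cytokines pool 1 and 10 from cytokines and NMMA pool 1, and none from any other library.

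*Il6* was a transcript of endothelial and mesenchymal cells. Untreated, mesenchymal cells held 28 of 32 *Il6* UMIs (87.5%) and endothelial cells 4 (12.5%). With cytokines, 1281 of 2385 (53.7%) were in endothelial and 1079 (45.2%) in mesenchymal cells, which were 283 and 217 of all 10876 kept barcodes. In mesenchymal cells *Il6* was 40.3 and 40.2 CPM untreated, 4216 and 1404 with cytokines, 1599 and 1229 with cytokines and NMMA and 46.4 and 63.0 with NMMA. In endothelial cells it was 4.01 and 2.92 CPM untreated, 2504 and 1910.4 with cytokines, 536 and 1501 with cytokines and NMMA and 8.60 and 5.56 with NMMA. In both classes every cytokine-treated library lay above every library without cytokines. The log2 change was 9.41 ± 0.708 in endothelial cells (adjusted p = 8.57e-05 in edgeR's quasi-likelihood test) and 6.30 ± 0.614 in mesenchymal cells (adjusted p = 0.000356).

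The *Il6* transcripts were concentrated in part of these cells. With cytokines, 26.7% and 47.8% of endothelial cells and 61.5% and 56.0% of mesenchymal cells held a UMI of *Il6*, with a median of 106.5 and 32 UMIs per endothelial cell that held any. The cell with the most UMIs carried 57.2% and 43.4% of the endothelial and 32.4% and 49.0% of the mesenchymal *Il6* UMIs. Without that cell, *Il6* stayed at 1072 and 1081 CPM in endothelial and 2850 and 717 CPM in mesenchymal cells. Macrophages held 0 *Il6* UMIs untreated and 0 and 3 with cytokines, and cytokine-treated macrophages lay below endothelial and mesenchymal cells (log2 differences of -8.86 ± 0.907 and -9.22 ± 0.901, adjusted p = 1.72e-05 and 1.78e-05 in edgeR's quasi-likelihood test). β-cells held 0 *Il6* UMIs untreated and 7 and 4 with cytokines, at least 4.05-fold higher with the untreated group set at 3 UMIs, and the gene did not pass the low-count filter there.

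*Tnf* was found mostly in macrophages. It was 28.1 and 20.9 CPM in untreated macrophages, 53.98 and 96.8 with cytokines, 73.6 and 76.6 with cytokines and NMMA and 35.1 and 10.9 with NMMA. Macrophages held 25 of 29 untreated and 62 of 85 cytokine-treated *Tnf* UMIs (86.2% and 72.9%). The groups with and without cytokines did not overlap, with a change of 1.74 ± 0.429 (adjusted p = 0.0297 in edgeR's quasi-likelihood test). This call was lost with DESeq2 (adjusted p = 0.171) and without untreated replicate 1 (0.0726), untreated replicate 2 (0.245) or cytokines replicate 2 (0.282). Macrophages exceeded each of the other 5 classes in *Tnf*, untreated and with cytokines, by at least 6.25 on the log2 scale (highest adjusted p = 0.00226 in edgeR's quasi-likelihood test, untreated against mesenchymal cells, 0.0678 without untreated replicate 2). Without cytokines replicate 2 the difference from mesenchymal cells with cytokines was also lost (adjusted p = 0.0603). Many of the lower groups held 0 UMIs, where a fitted difference is no bound.

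In β-cells *Tnf* had 0 UMIs untreated and 8 and 9 with cytokines, at least 6.26-fold higher with the untreated group set at 3 UMIs (adjusted p = 0.00595 in edgeR's quasi-likelihood test, 0.0535 without untreated replicate 1). At 0.428 UMIs per 100 macrophage-gene UMIs (0.249 to 0.686) it overlapped the ratio of cytokine-treated macrophages, 0.352 (0.270 to 0.452), and with NMMA added the values were 0.569 (0.356 to 0.862) and 0.317 (0.246 to 0.403). A macrophage gene was found in 57.6% of the 33 β-cells with *Tnf* and in 53.9% of those without it, over all conditions. The part of macrophage RNA in these UMIs was not tested. With cytokines and NMMA, α-cells held 8 and 7 *Tnf* UMIs (4.78 and 3.74 CPM, in 4 and 5 cells) and δ-cells 0 and 7, which made up 12.8% and 5.98% of all 117 *Tnf* UMIs, against 57.3% in macrophages. Per 100 macrophage-gene UMIs these were 11.2 (6.10 to 19.1) and 6.48 (2.54 to 13.8), above the ratio of macrophages.

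With cytokines most UMIs of *Csf1*, the growth factor on which macrophages depend, lay in β-cells. Per UMI of the class, mesenchymal cells with cytokines had a higher level than the endocrine classes, as given below, with no test between them. β-cells held 464 of 587 *Csf1* UMIs untreated (79.0%), beside 85.2% and 69.2% of all UMIs. With cytokines they held 2617 of 2832 (92.4%), beside 93.0% and 84.6% of all UMIs. In β-cells *Csf1* was 9.10 and 9.27 CPM untreated, 62.2 and 47.9 with cytokines, 42.3 and 39.5 with cytokines and NMMA and 9.34 and 7.74 with NMMA. In α-cells the values were 3.28 and 2.24, 44.3 and 36.5, 41.2 and 42.2, and 2.17 and 2.002 CPM in the same order. The cytokine conditions lay above the others with no overlap in both classes, and the change was 2.80 ± 0.183 in β-cells (adjusted p = 1.22e-05) and 4.38 ± 0.397 in α-cells (adjusted p = 5.51e-07, both in edgeR's quasi-likelihood test).

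δ-cells had 2.57 and 1.69 CPM of *Csf1* untreated, 14.1 and 80.2 with cytokines (2 and 16 UMIs in 11 and 10 cells), 80.0 and 86.0 with cytokines and NMMA and 3.50 and 1.71 with NMMA. The change with cytokines was 4.26 ± 0.734 (adjusted p = 0.000567 in edgeR's quasi-likelihood test) and rested on cytokines replicate 2, without which it was 2.35 (adjusted p = 0.327). Endothelial cells had 8.02 and 5.83 CPM untreated, 14.0 and 66.8 with cytokines, 13.6 and 71.4 with cytokines and NMMA and 3.44 and 5.56 with NMMA. Here pool 2 was high in both cytokine conditions, and the change of 2.88 ± 0.854 did not pass (adjusted p = 0.0843 in edgeR's quasi-likelihood test) but did so with the replicate block (2.83 ± 0.577, adjusted p = 0.000910).

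Mesenchymal cells had 111 and 50.3 CPM of *Csf1* untreated, 124 and 111 with cytokines, 99.3 and 137 with cytokines and NMMA and 20.6 and 139 with NMMA. The groups overlapped, and a change of 0.74 ± 0.772 did not pass (adjusted p = 0.914 in edgeR's quasi-likelihood test). In untreated pool 1, 84.8% of the *Csf1* UMIs of these cells lay in 1 cell. Macrophages themselves held 0 to 7.85 CPM of *Csf1*, and with cytokines they lay below β-cells (-3.89 ± 0.851, adjusted p = 0.000575), α-cells (-3.22 ± 0.983, adjusted p = 0.0103) and mesenchymal cells (-4.29 ± 0.964, adjusted p = 0.00177 in edgeR's quasi-likelihood test). The difference from α-cells was lost without cytokines replicate 1 (-2.24, adjusted p = 0.174).

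**Figure D2:**
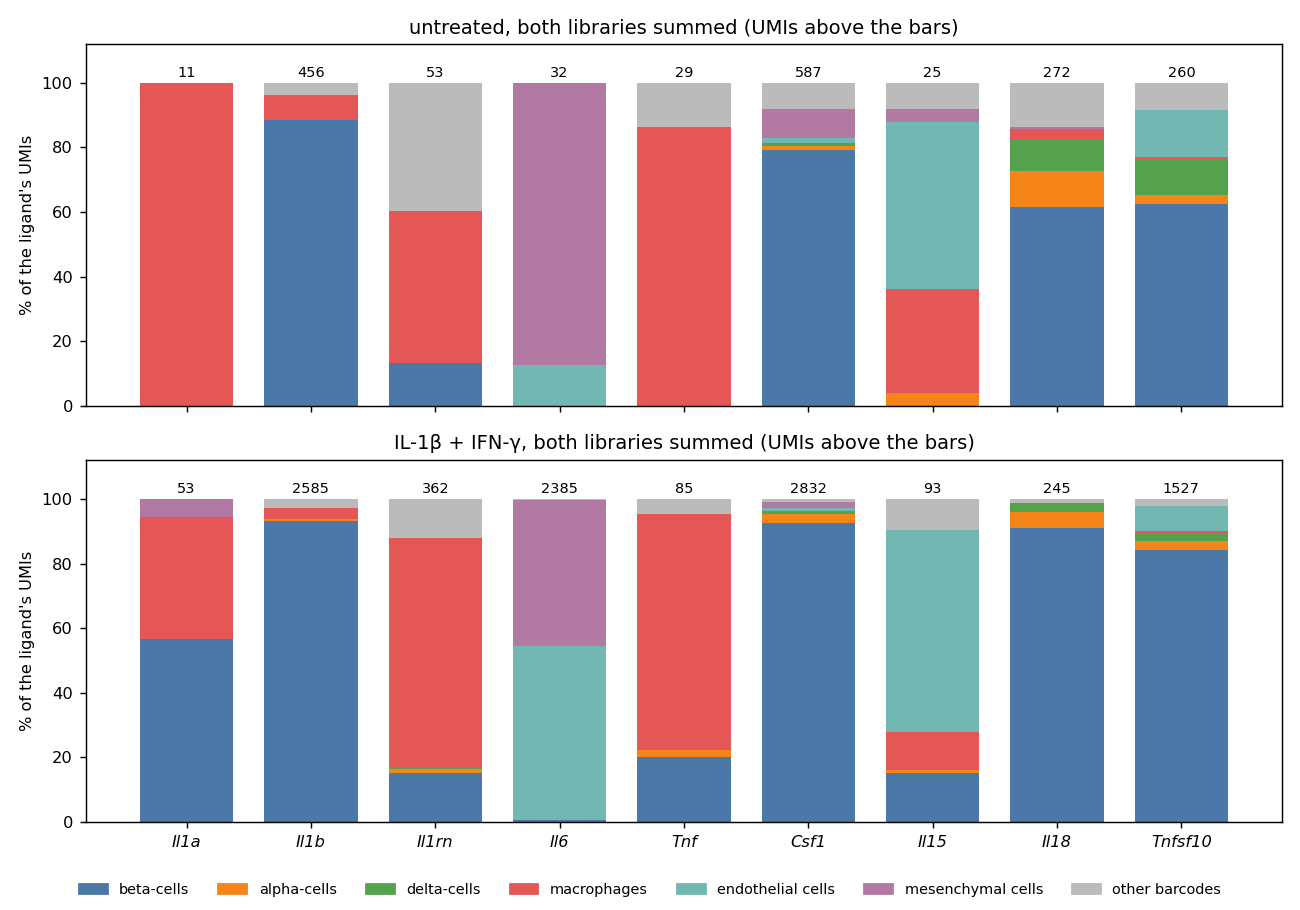
Stacked shares of each ligand's UMIs (percent of its UMIs in all kept barcodes, both pools summed) held by each cell class, in untreated and cytokine-treated islets. β-cells held 88.6% and 93.2% of *Il1b*, macrophages 86.2% and 72.9% of *Tnf*, and with cytokines endothelial and mesenchymal cells held 53.7% and 45.2% of *Il6*.

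*Il15*, which sustains natural killer and memory T cells, rose in endothelial cells. It was 12.03 and 10.2 CPM there untreated, 74.6 and 108 with cytokines, 90.8 and 117 with cytokines and NMMA and 24.1 and 18.5 with NMMA. The cytokine conditions lay above the others without overlap, and the change was 3.25 ± 0.393 (adjusted p = 2.52e-05 in edgeR's quasi-likelihood test). Endothelial cells held 52.0% of the untreated and 62.4% of the cytokine-treated *Il15* UMIs (13 of 25 and 58 of 93). Macrophages, with 5.62 and 8.35 CPM untreated and 17.3 and 7.85 with cytokines, lay below endothelial cells with cytokines by a log2 difference of -2.38 ± 0.684 (adjusted p = 0.00654 in edgeR's quasi-likelihood test), which was lost without cytokines replicate 2 (-1.54, adjusted p = 0.322).

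*Il18* was expressed by the endocrine cells in every condition. δ-cells had 13.7 and 18.6 CPM untreated, 14.1 and 20.04 with cytokines, 17.1 and 15.6 with cytokines and NMMA and 17.5 and 17.1 with NMMA, with complete overlap between conditions. In α-cells the values were 12.3 and 8.98, 10.8 and 2.28, 11.4 and 3.21, and 2.17 and 7.34 CPM in that order. β-cells had 3.13 and 3.67, 5.16 and 4.32, 5.68 and 3.71, and 2.73 and 2.21 CPM. The β-cell change with cytokines of 0.71 ± 0.264 did not pass (adjusted p = 0.0506 in edgeR's quasi-likelihood test) and passed with the replicate block (0.74 ± 0.206, adjusted p = 0.00455). β-cells, by their number, still held 61.4% of the untreated *Il18* UMIs, beside 85.2% and 69.2% of all UMIs. Macrophages held 2.94% (8 UMIs), beside 0.863% and 3.20% of all UMIs, and endothelial cells 0. Per UMI of the class, the difference of macrophages from β-cells did not pass untreated (0.60 ± 0.733, adjusted p = 0.530 in edgeR's quasi-likelihood test over 6 classes). With cytokines, where macrophages held 1 *Il18* UMI, it did not pass either (-2.38 ± 1.315, adjusted p = 0.135 in the same test).

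*Tnfsf10* was found in endocrine and endothelial cells. In β-cells it was 2.93 and 3.80 CPM untreated, 30.5 and 23.5 with cytokines, 83.5 and 74.7 with cytokines and NMMA and 1.77 and 3.18 with NMMA. α-cells had 1.64 and 3.37, 13.2 and 25.1, 72.3 and 86.5, and 3.25 and 1.33 CPM, and δ-cells 14.6 and 20.3, 119.8 and 75.1, 187 and 182, and 19.3 and 17.1 CPM in the same order. All 3 endocrine classes had the same order without overlap, with cytokines above untreated and cytokines with NMMA above cytokines. The change with cytokines was 3.25 ± 0.232 in β-cells, 3.37 ± 0.467 in α-cells and 2.33 ± 0.367 in δ-cells (adjusted p = 1.88e-05, 6.18e-05 and 0.000223 in edgeR's quasi-likelihood test).

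Endothelial cells had 24.1 and 37.9 CPM of *Tnfsf10* untreated, 111.9 and 239 with cytokines, 168 and 188 with cytokines and NMMA and 5.16 and 20.4 with NMMA. The change with cytokines was 2.70 ± 0.454 (adjusted p = 0.00264 in edgeR's quasi-likelihood test). Macrophages held 1 untreated *Tnfsf10* UMI and 9 and 6 with cytokines, and lay below endothelial cells (-4.53 ± 0.933 untreated and -2.88 ± 0.402 with cytokines, adjusted p = 0.000113 and 1.55e-07) and δ-cells (-4.10 ± 1.003 and -1.88 ± 0.498, adjusted p = 0.000801 and 0.00308 in edgeR's quasi-likelihood test). Leaving out 1 library ended the δ-cell differences (without untreated replicate 2, adjusted p = 0.0617, and without cytokines replicate 1, adjusted p = 0.0729). Mesenchymal cells held at most 1 *Tnfsf10* UMI per library.

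Counted by class, each of the 6 held ligands that rose with cytokines and none that fell. In β-cells 6 of the 7 ligands that passed the low-count filter rose (*Il1a*, *Il1b*, *Il1rn*, *Tnf*, *Csf1* and *Tnfsf10*), where 23.8% of the 12771 genes tested were called higher. Untreated β-cells held 0 UMIs of *Il1a*, 0 of *Tnf* and 7 of *Il1rn*, so these 3 passed the filter only through libraries with cytokines. For such genes a rise is largely set by the filter. For *Il1rn* and *Tnf*, which also enter the median below, the β-cell levels were low and stood near the ratio to macrophage genes that macrophages had, as given above. Of the 3 tested in α-cells and the 3 in δ-cells, *Csf1* and *Tnfsf10* rose, beside 13.3% and 5.88% of all genes. In macrophages 2 of 4 rose (*Il1rn* and *Tnf*, beside 3.82% of all genes), in endothelial cells 3 of 4 (*Il6*, *Il15* and *Tnfsf10*, beside 4.60%) and in mesenchymal cells 1 of 2 (*Il6*, beside 1.78%). The median change of the tested ligands on the log2 scale was 1.81 in macrophages, 3.06 in endothelial cells, 3.52 in mesenchymal cells, and among the endocrine classes 2.33 (δ-cells), 3.19 (β-cells) and 3.37 (α-cells), and the medians of all genes lay between -0.04 and 0.01. The limit from the filter also holds for *Csf1* and *Tnfsf10* in α-cells, *Csf1* in δ-cells, and *Il6* and *Il15* in endothelial cells. The counts and medians are therefore a description and no test of the ligands as a set. These fits share their libraries, so a count in 1 class is not compared with that in another.

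With cytokines and NMMA against untreated, 6, 2, 2, 3, 3 and 1 ligands rose in β-cells, α-cells, δ-cells, macrophages, endothelial and mesenchymal cells (12.9%, 5.92%, 6.49%, 5.16%, 5.03% and 1.92% of all genes), and they were the ones called with cytokines alone, with *Il1a* in macrophages added. The same limit from the low-count filter applies to these counts, and to *Il1a* in macrophages. The *Tnf* call in macrophages (1.74) was lost with DESeq2 (adjusted p = 0.139) and without any 1 of the untreated or cytokines and NMMA libraries (adjusted p between 0.0570 and 0.199), that in β-cells without untreated replicate 1 (0.0590), and that of *Tnfsf10* in endothelial cells without cytokines and NMMA replicate 2 (0.0560). NMMA alone changed 0 ligands in any class by edgeR's quasi-likelihood test, where 0% of all genes were called in each. At an unadjusted p under 0.05, 1 ligand each was found in β-cells (*Il1b*), macrophages (*Il1rn*) and endothelial cells (*Tnfsf10*), and DESeq2 called 0 ligands.

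Whether nitric oxide takes part in these levels was asked by comparing cytokines with NMMA against cytokines alone. *Tnfsf10* rose further in β-cells, by 1.33 ± 0.204 (adjusted p = 0.00477), and in α-cells, by 1.62 ± 0.297 (adjusted p = 0.00255 in edgeR's quasi-likelihood test). Its δ-cell change of 1.04 ± 0.289 did not pass (adjusted p = 0.0897) but passed with the replicate block (1.04 ± 0.273, adjusted p = 0.0136). *Csf1* fell in β-cells, by a change of -0.64 ± 0.170 (adjusted p = 0.0299 in edgeR's quasi-likelihood test). That call was lost with total UMI scaling (-0.43, adjusted p = 0.0774) and without cytokines replicate 1 (adjusted p = 0.187), cytokines and NMMA replicate 1 (0.0811) or cytokines and NMMA replicate 2 (0.143). *Il1b* in β-cells was higher with NMMA in both pools (94.2 against 58.4 and 63.7 against 42.0 CPM), with a change of 0.44 ± 0.242 that did not pass (adjusted p = 0.232 in edgeR's quasi-likelihood test).

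So 2 of 7 tested ligands changed in β-cells, beside 19.4% of all genes, 1 of 3 in α-cells, beside 10.0%, and 0 of 3 in δ-cells, beside 1.18%. By edgeR's quasi-likelihood test 0 ligands changed in macrophages, endothelial and mesenchymal cells, where 0.116%, 0% and 0% of all genes were called. At an unadjusted p under 0.05, *Tnfsf10* in δ-cells and *Il6* in endothelial cells were found, 0 in macrophages and 0 in mesenchymal cells, and DESeq2 called 0 ligands in all 4 of these classes. Whether the effect of NMMA differed between classes was not tested.

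**Figure D3:**
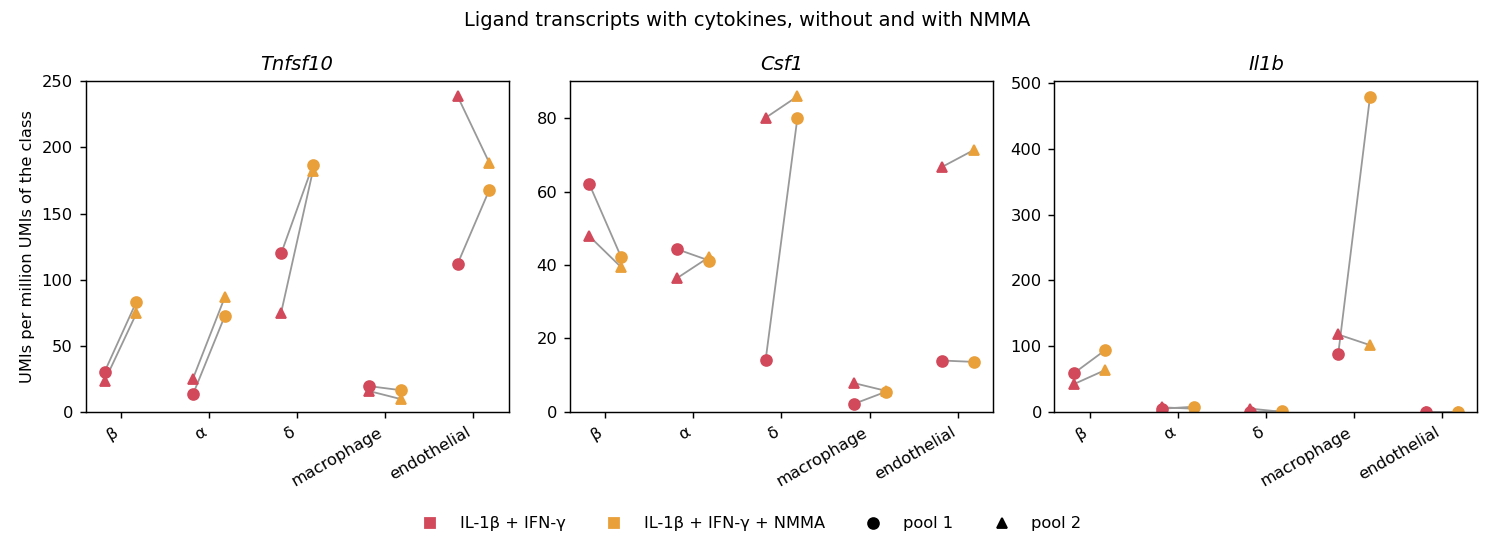
Levels (CPM) of *Tnfsf10*, *Csf1* and *Il1b* with IL-1β + IFN-γ and with NMMA added, where a line joins the 2 libraries of a pool in β-cells, α-cells, δ-cells, macrophages and endothelial cells. *Tnfsf10* was higher with NMMA in both pools of β-cells (30.5 to 83.5 and 23.5 to 74.7), α-cells and δ-cells, and *Csf1* was lower in both pools of β-cells (62.2 to 42.3 and 47.9 to 39.5).

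Macrophages were set against each other class in 1 fit over the 6 classes, and the other classes were not tested against one another. In untreated islets 5 of 9 ligands differed from β-cells, 5 from α-cells, 6 from δ-cells, 6 from endothelial and 3 from mesenchymal cells, where 51.9%, 45.2%, 44.6%, 37.0% and 28.9% of 10756 genes differed. With cytokines the counts were 6, 6, 4, 7 and 7, beside 48.4%, 44.8%, 29.0%, 30.9% and 25.1% of all genes. The shares of ligands are thus set against a background in which a large part of all genes separates the cell types. The median difference of all genes was -0.29 and -0.34 on the log2 scale against β-cells (untreated and with cytokines), -0.16 and -0.23 against α-cells and between -0.16 and -0.0037 against the other 3. Relative to β-cells, *Il1a*, *Il1rn*, *Tnf* and *Il15* were higher in macrophages in both conditions, *Il1b* in untreated islets, and *Csf1* and *Tnfsf10* lower with cytokines. The *Il1a* difference with cytokines was lost without cytokines replicate 1 (2.56, adjusted p = 0.240). The *Tnfsf10* difference of -0.97 ± 0.410 (adjusted p = 0.0461 in edgeR's quasi-likelihood test) did not pass with total UMI scaling (-0.62, adjusted p = 0.253) or with cluster resolution 2 (-0.95, adjusted p = 0.0588), nor without 1 of the untreated or cytokine libraries or cytokines and NMMA replicate 2 (adjusted p between 0.0553 and 0.233).

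The response to cytokines itself was compared between classes as an interaction. For macrophages, endothelial and mesenchymal cells against β-cells, 0 of the 9 ligands differed in response by edgeR's quasi-likelihood test, where 3.80%, 4.84% and 3.07% of all genes did. At an unadjusted p under 0.05 there were 3 ligands for macrophages (*Il1a*, *Tnf* and *Il15*), 0 for endothelial and 2 for mesenchymal cells (*Csf1* and *Il15*). DESeq2 was not run on the fit over classes. For most ligands a class with a response stood beside a class with few UMIs, which limits what this comparison can show.

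β-cells were not alike in their ligand transcripts. Cluster 5, led by the heat shock genes *Hspa1a*, *Hspa1b* and *Dnajb1*, held 40 to 146 β-cells of every library. With cytokines *Il1b* was 8.02 CPM in this cluster against 60.9 in the other β-cells of pool 1, and 10.1 against 47.1 in pool 2. With cytokines and NMMA it was 9.599 against 98.7 and 8.56 against 70.6 CPM, while in untreated islets it was 9.73 against 6.95 and 7.01 against 10.6. *Tnfsf10* was 5.10 against 31.8 and 6.17 against 26.3 CPM with cytokines, and 11.7 against 87.3 and 4.67 against 83.4 with NMMA added. *Csf1* was 35.7 against 63.5 and 22.5 against 51.9 CPM with cytokines, and 1.62 against 9.24 and 3.23 against 10.1 untreated (1 and 6 UMIs in the cluster), so it was lower in the cluster in both conditions.

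With cytokines the interferon-induced *Gbp2* was 89.7 against 1216 and 81.9 against 854 CPM. *Nos2* was 2.19 against 181 and 8.81 against 166 CPM, and *Cxcl10* 178 against 241 and 61.7 against 124. *Irf1* was 163 against 166 and 78.9 against 182 CPM. *Nfkbia*, an inhibitor of NF-κB that NF-κB induces, was 729 against 282 and 254 against 206. It was already higher in the cluster untreated (94.1 against 45.5 and 53.9 against 37.6 CPM). Untreated *Il1r1* was 45.4 against 234 and 114 against 220 CPM. With cytokines the values lay closer together, at 65.6 against 80.67 and 67.4 against 84.05 CPM. The clusters were formed from expression in these cells, so these values are a description with no test. Counted per cell, 34.2% and 43.1% of untreated β-cells held a UMI of any of the 9 ligands, against 84.7% and 75.04% with cytokines. UMIs of at least 3 ligands were found in 0.602% and 1.82% untreated, 19.1% and 19.1% with cytokines and 38.4% and 26.0% with cytokines and NMMA.

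**Figure D4:**
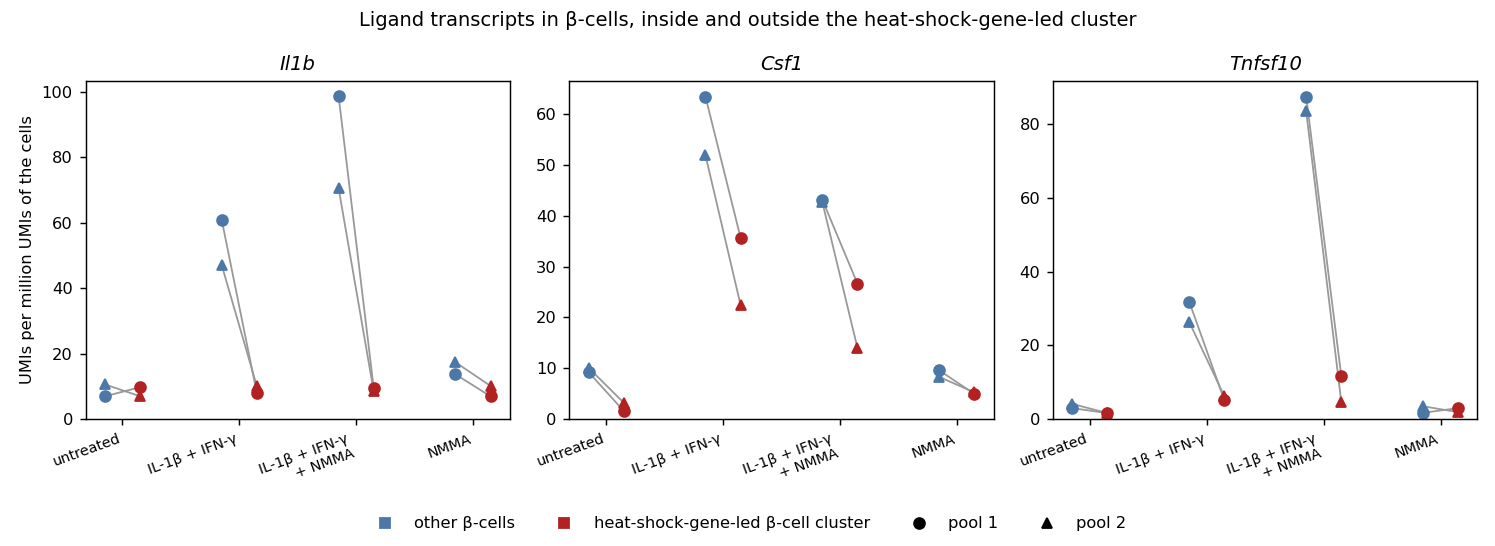
Levels (CPM) of *Il1b*, *Csf1* and *Tnfsf10* in the β-cells of cluster 5, led by heat shock genes, and in all other β-cells of the same library, with a line joining the 2 values of a library. With IL-1β + IFN-γ, *Il1b* was 8.02 and 10.1 in the cluster against 60.9 and 47.1 in the other β-cells.

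Genes around the ligands were followed in lists of receptors, of proteins that mature or bind the ligands, and of other ligands. Among 14 receptors, 7 of the 10 tested in β-cells rose with cytokines and 2 fell, where 23.8% of all genes were called higher and 22.4% lower. Those that rose were *Il15ra*, *Il18r1*, *Il1r2*, *Il6st*, *Tnfrsf10b*, *Tnfrsf1a* and *Tnfrsf1b*, and *Il1r1* and *Il6ra* fell. In α-cells 2 of 5 rose and 2 fell (13.3% of all genes called higher and 7.98% lower), in δ-cells 1 of 5 rose and 1 fell (5.88% and 4.10%), and in endothelial cells 2 of 7 rose and 1 fell (4.60% and 1.72%). None of the 4 receptors tested in macrophages and none of the 3 in mesenchymal cells passed in edgeR's quasi-likelihood test.

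*Il1r1*, the signalling receptor of IL-1, changed by -1.22 ± 0.157 in β-cells (adjusted p = 0.000353), -1.01 ± 0.208 in α-cells (0.00216), -1.30 ± 0.375 in δ-cells (0.0315) and -2.43 ± 0.574 in endothelial cells (0.0151 in edgeR's quasi-likelihood test). *Tnfrsf1a*, the main TNF receptor, rose by 1.69 ± 0.185 in β-cells, 1.07 ± 0.232 in α-cells, 1.68 ± 0.298 in δ-cells and 0.94 ± 0.246 in endothelial cells (highest adjusted p = 0.0300 in edgeR's quasi-likelihood test). *Il15ra*, which presents IL-15, rose by 1.40 ± 0.221 in β-cells and 2.91 ± 0.731 in endothelial cells (adjusted p = 0.00104 and 0.0226 in edgeR's quasi-likelihood test). *Il6ra* changed by -1.48 ± 0.156 in β-cells and -1.10 ± 0.299 in α-cells (adjusted p = 0.000128 and 0.0139 in edgeR's quasi-likelihood test).

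Of the 10 maturation and binding proteins, 7 of 9 tested rose in β-cells, 5 of 7 in α-cells, 5 of 7 in δ-cells, 2 of 10 in macrophages, 4 of 7 in endothelial and 1 of 5 in mesenchymal cells, and none fell. The shares of all genes called higher were 23.8%, 13.3%, 5.88%, 3.82%, 4.60% and 1.78% in the same order. *Il18bp*, the secreted protein that binds IL-18, rose in all 6 classes, from 1.48 ± 0.241 in macrophages to 5.31 ± 0.602 in mesenchymal cells (highest adjusted p = 0.00150 in edgeR's quasi-likelihood test). *Casp4*, an inflammatory caspase, rose by 7.003 ± 0.660 in β-cells, 4.83 ± 0.467 in endothelial cells and 2.44 ± 0.357 in macrophages (highest adjusted p = 0.000590 in edgeR's quasi-likelihood test). *Tnfaip3*, a feedback inhibitor of NF-κB, rose by 3.95 ± 0.224 in β-cells, by 5.31 ± 0.555 in α-cells and by 5.14 ± 0.982 in δ-cells (highest adjusted p = 0.00139), and *Nfkbia* by 2.80 ± 0.254, 4.69 ± 0.641 and 2.49 ± 0.375 in the same classes and 0.86 ± 0.239 in endothelial cells (highest adjusted p = 0.0394 in edgeR's quasi-likelihood test).

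Of 28 other cytokine ligands, 7 of 13 tested in β-cells rose (*Csf3*, *Il27*, *Il7*, *Lif*, *Ltb*, *Tgfb1* and *Tnfsf15*) and *Ebi3* fell, beside 23.8% of all genes called higher and 22.4% lower. *Lif* rose by 3.27 ± 0.704 in β-cells and 3.59 ± 0.407 in endothelial cells (adjusted p = 0.00503 and 1.45e-05 in edgeR's quasi-likelihood test). *Tgfb1* rose by 1.85 ± 0.578 in β-cells, 2.13 ± 0.630 in α-cells and 2.98 ± 0.716 in δ-cells (highest adjusted p = 0.0266 in edgeR's quasi-likelihood test). In endothelial cells *Tgfb2* fell, and none of the 4 tested in macrophages or the 7 in mesenchymal cells passed.

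As a check of the exposure, the IFN-γ and IL-1 target *Irf1* rose in all 6 classes, by 3.21 ± 0.131 in β-cells to 4.87 ± 0.438 in mesenchymal cells (highest adjusted p = 0.000271 in edgeR's quasi-likelihood test), and so did *Gbp2* (5.95 ± 0.795 in macrophages to 10.22 ± 0.833 in α-cells, highest adjusted p = 0.0187). *Nos2* passed in β-, δ-, endothelial and mesenchymal cells and missed in macrophages (adjusted p = 0.0503) and α-cells (0.0914). *Cxcl10* passed in β-, α-, endothelial and mesenchymal cells (highest adjusted p = 0.0246 in edgeR's quasi-likelihood test) and missed in macrophages (0.110) and δ-cells (0.273).

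The genes whose level over the 48 sums (6 classes in 8 libraries) was most like a ligand's, among 14286 genes by Pearson's r on log2 levels, were for *Tnf* *Cybb* (0.958), *Fcgr4* and *Cst7*, for *Il1rn* *Tnf* (0.949), *Themis2* and *Ms4a4c*, for *Il6* *Art3* (0.939), *Rarres2* and *Sod3*, and for *Il15* *Prkch* (0.915), *S1pr1* and *Ehd4*. *Il1b* was most like *Psd4* (0.887), *Gabarap* and *Creg1*, *Csf1* most like *Tubb3* (0.842), *Cebpd* and *Nfkbiz*, and *Tnfsf10* most like *Clic5* (0.887), *Samd9l* and *Enpp4*. For *Il1a* they were *Got1* (0.851), *Acp5* and *Spg21*, and for *Il18* *Gnptg* (0.820), *Chgb* and *Prxl2a*. The sums share pools and cell type, so r is a description of these 48 points.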

How the data were processed

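Islets were dissociated and sequenced as droplet-based single-cell libraries. The authors aligned and counted the reads with Cell Ranger against mm10, per the file headers with version 3.0.0 for pool 1 and 6.0.0 for pool 2, and deposited raw UMI counts per gene and barcode for 31053 and 32285 genes. Genes were joined by identifier (30406 shared, 597 with another symbol). The 9 ligands and the gene lists were chosen with earlier results of these data known. Strand use in counting was not given in the sources used here.

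Barcodes with at least 200 genes, at most 5500 (pool 1) or 6500 (pool 2) genes and at most 10% mitochondrial UMIs were kept, leaving 10876. Cells were clustered with scanpy 1.11.5 (2000 variable genes without the 9 ligands, of which 3 had been among them, 30 principal components, 20 neighbours, Leiden resolution 1, 24 clusters, 10 further clusters on dividing 1 group) and named from fixed markers, so names may differ from the study's. A doublet caller marked 200 cells (1.84%), which were removed only as an alternative. Any pair of libraries shared at most 2 barcodes.

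UMI counts were summed per class and library (at least 10 cells) and tested with edgeR 4.0.16 (R 4.3.3; filterByExpr, TMM, robust quasi-likelihood fit over all 8 libraries, Benjamini-Hochberg adjustment, threshold 0.05), and in 1 fit over the 6 classes with library as a block. Thus each test within a class uses a spread shared by all 4 conditions, with 2 pools in each, and drawn toward that of other genes. In the fit over 6 classes the block takes up differences between libraries. Its p-values therefore measure the spread left between classes within libraries. On simulated counts the fit recovered 88.3% of 4-fold changes in β-cells (12567 genes), 81.7% in α-cells, 54.7% in δ-cells, 75.1% in macrophages, 79.5% in endothelial and 31.2% in mesenchymal cells. Libraries with the same number were taken as paired because the paper states that each pool was divided over the conditions. Their deviations from the condition means correlated in every pair and class (r of 0.795 to 0.898 in β-cells, 0.106 to 0.605 in the others). Pool and Cell Ranger version go together, so r cannot tell shared mice from shared processing. Alternatives were the replicate block, total UMI scaling, no low-count filter, DESeq2 1.42.0, doublets removed, cluster resolution 2, ligands kept in clustering, a minimum of 5 cells and leaving out each library. Shares of cells were also computed after thinning cells to 1000 UMIs. Intervals are 95% exact ones, and intervals and floors (3 UMIs over the group where a group held 0) cover counting error only. All 9 ligands were named. Of each list, up to 4 genes called with cytokines in at least 2 classes were named with values, largest change first, and other genes of a list were named only as those its counts hold. The β-cell cluster led by heat shock genes were described after their values were seen.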

Additional observations from a re-analysis of the deposited data

Results flagged for a closer look

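In each of these comparisons both libraries of a class lay on 1 side and those of the other class on the opposite side, and the difference between classes was not tested. With NMMA added to cytokines, *Csf1* was higher by a mean of 35.88 CPM in δ-cells and changed by -14.14 CPM in β-cells, a difference of 50.02 CPM. The δ-cell mean rests on pool 1, where *Csf1* went from 14.1 CPM (2 UMIs in 11 cells) to 80.0 CPM, against 80.2 to 86.0 CPM in pool 2. With cytokines against untreated, *Il18* changed by 1.342 CPM in β-cells, 0.8875 CPM in δ-cells and -4.106 CPM in α-cells, so that β-cells and δ-cells differed from α-cells by 5.448 and 4.993 CPM. These values rest on 6 *Il18* UMIs in cytokine-treated δ-cells and 12 in α-cells. With the replicate block the log2 changes there were -0.02 ± 0.694 and -0.33 ± 0.622 (adjusted p = 0.992 and 0.736 in edgeR's quasi-likelihood test). With NMMA added to cytokines, *Tnfsf10* changed by 52.04 CPM in β-cells, 60.3 CPM in α-cells and 87.09 CPM in δ-cells and by -4.602 CPM in macrophages, differences of 56.64, 64.9 and 91.69 CPM. The macrophage value rests on 15 UMIs with cytokines and 11 with NMMA added, and *Tnfsf10* did not pass the low-count filter of that class.

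The 67 to 905 barcodes per library outside the 6 classes, which no comparison used, also held ligand transcripts above the untreated level. Their mean level with cytokines against untreated was 86.45 against 3.232 CPM for *Il1b*, 54.51 against 3.977 for *Il1rn*, 31.86 against 9.039 for *Csf1*, 10.45 against 0.3927 for *Il15* and 40.59 against 4.134 for *Tnfsf10*. These means rest on 1 library each. In pools 1 and 2 with cytokines, *Il1b* was 4.99 and 167.9 CPM (2 and 73 UMIs), *Il1rn* 99.8 and 9.20 CPM (40 and 4 UMIs), *Csf1* 49.9 and 13.8 CPM (20 and 6 UMIs), *Il15* 2.50 and 18.4 CPM (1 and 8 UMIs) and *Tnfsf10* 67.4 and 13.8 CPM (27 and 6 UMIs). The part that other cell types or low-depth barcodes had in these levels was not tested.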

How the results depend on the processing

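Counts of called ligands moved by over 1.5 times as follows. With total UMI scaling 1 ligand was called in β-cells for cytokines with NMMA against cytokines (2 in the report), and with DESeq2 1 in macrophages for cytokines against untreated (2). Without the low-count filter 1 ligand each was called for cytokines with NMMA against cytokines in δ-cells and in endothelial cells, for NMMA in β-cells and for the response of mesenchymal cells against β-cells (0 each), 5 for cytokines with NMMA against untreated in α-cells (2) and 6 for macrophages against mesenchymal cells untreated (3). With cluster resolution 2, 3 were called for macrophages against endothelial cells untreated (6). The replicate block raised the δ-cell count for cytokines with NMMA against cytokines from 0 to 1. It also called *Csf1* in endothelial cells for cytokines with NMMA against untreated (2.96 ± 0.549, adjusted p = 0.000271 in edgeR's quasi-likelihood test), which did not pass without the block. Beside this and the *Csf1*, *Il18*, *Tnfsf10* and *Il1b* calls given with the block in the report, no other change of a call with the block was found. *Il1a* in macrophages (cytokines against untreated) ranged from -0.21, without cytokines replicate 1, to 1.88 with 1 library left out. The causes were not tested.

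Leaving out 1 library at a time gave 1 to 2 called ligands for cytokines with NMMA against cytokines in β-cells and 0 to 1 in endothelial cells, 1 to 2 for cytokines against untreated in δ-cells, and 1 to 3 in macrophages for either cytokine condition against untreated. For macrophages against other classes it gave, untreated and with cytokines, 2 to 5 and 3 to 6 against α-cells, 2 to 6 and 2 to 5 against δ-cells, 2 to 6 and 4 to 8 against endothelial cells and 0 to 5 and 3 to 7 against mesenchymal cells, and 0 to 1 for the response of mesenchymal cells against β-cells. Of the values of single ligands so refitted, 723 kept direction and side of the threshold, 73 lost the call, 11 gained it and 1 reversed. A minimum of 5 cells changed no call, and removing doublets added 1 (*Il18* in β-cells, adjusted p = 0.0451). With the ligands kept in clustering, δ-cells with cytokines alone could not be fitted. On simulated counts, 4-fold changes were recovered least often in mesenchymal cells (31.2%) and δ-cells (54.7%).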

Other observations

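Outside the 6 classes, an unnamed cluster of 41 cells led by the immunoglobulin genes *Igkc*, *Ighm* and *Jchain* held *Il1b* at 138.1 CPM (80 UMIs over all libraries). A ductal-like cluster of 39 cells held *Il1rn* at 104 CPM (66 UMIs) and *Csf1* at 74.1 CPM (47 UMIs). These values are sums over all conditions, with no test.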
